A study of Mus musculus with 9 samples.

Results

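Transcripts of 7 genes that build and load major histocompatibility complex (MHC) class I molecules were followed in mouse mast cells that lacked the aryl hydrocarbon receptor (AhR), that carried the AhR-d allele, or that were controls. Every probe annotated to B2m, H2-K1, H2-D1, H2-T23, Tap1, Tap2 or Tapbp was taken, whatever its value, which gave 12 of the 25697 probes on the array. Of these, 11 were called above background by the authors' software (detection p under 0.01) on 3 arrays or more, and they were tested together with all 9777 probes that met the same rule. Probes of 1 gene are numbered by their mean level, and B2m probe 3 is the one that was not kept. Mast cells were grown from bone marrow for 4 weeks in medium with 30% WEHI-3 supernatant, an interleukin-3 source, then purified by bead depletion of other cells and held for 4 h without cytokines before RNA was collected. The 3 AhR null, 3 AhR-d and 3 control cultures each gave 1 Illumina Ref-8 beadchip, a single-colour array that reads labelled RNA held by gene-specific beads. All 9 are labelled C57BL/6J. AhR is a ligand-activated transcription factor, and the d allele is known for a receptor that binds its ligands weakly. The sources used here give neither the origin or MHC haplotype of the AhR-d mice, nor the null allele, nor whether cultures came from single animals, so a p-value here speaks of variation from culture to culture.

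A class I molecule is a heavy chain (H2-K1, H2-D1 or the non-classical H2-T23) held together with the light chain beta-2 microglobulin, the product of B2m. The TAP1 and TAP2 proteins form a pump that moves peptides from the cytosol into the endoplasmic reticulum, and tapasin, the product of Tapbp, holds the empty heavy chain at that pump until a peptide fits. Nearly all nucleated cells display such molecules to CD8 T cells and natural killer cells, and interferons, NF-kappa-B and the regulator NLRC5 are known to drive many of these genes.

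The sequence before the start of B2m and of both classical heavy chains is shown because these genes share known control elements. Among them only B2m probes passed the threshold between genotypes, and a difference between B2m and the heavy chains in this was not established. RefSeq promoter windows on GRCm38.p6 were given for 6 of the 7 genes, with none for Tap2. Each line holds the 250 bases before the annotated start, read 5′ to 3′ on the gene's own strand, and capitals mark matches to any of the 5 motifs described after them.
B2m, chr2:122147437-122147686, plus strand: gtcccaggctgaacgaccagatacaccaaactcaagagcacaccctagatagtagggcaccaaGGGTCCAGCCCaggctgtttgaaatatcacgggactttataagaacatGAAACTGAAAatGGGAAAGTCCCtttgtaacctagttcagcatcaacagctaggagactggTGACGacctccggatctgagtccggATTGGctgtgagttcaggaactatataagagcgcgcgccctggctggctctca
H2-K1, chr17:34000348-34000597, minus strand: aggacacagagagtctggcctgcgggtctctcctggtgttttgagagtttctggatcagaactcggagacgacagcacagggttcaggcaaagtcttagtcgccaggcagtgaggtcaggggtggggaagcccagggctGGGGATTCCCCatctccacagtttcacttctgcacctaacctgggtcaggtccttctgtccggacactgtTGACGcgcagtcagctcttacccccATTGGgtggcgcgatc
H2-D1, chr17:35262844-35263093, plus strand: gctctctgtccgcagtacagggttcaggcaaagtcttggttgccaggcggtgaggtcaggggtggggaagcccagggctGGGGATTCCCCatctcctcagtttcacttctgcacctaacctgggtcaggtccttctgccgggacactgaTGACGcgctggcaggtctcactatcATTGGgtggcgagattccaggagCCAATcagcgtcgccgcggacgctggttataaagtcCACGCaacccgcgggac

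The 5 motifs were searched on both strands in the same 250 bases of all 32851 promoter windows. The core of the interferon-stimulated response element, GAAA, any 2 bases, then GAAA, was found in 2.98% of all windows, and among the 6 genes in B2m (first base 139 bases before the start) and H2-T23. The kappa-B type motif, GGG with any 5 bases before CCC, a palindromic form of the site that NF-kappa-B binds, was found in 12.2% of all windows and in B2m, H2-K1, H2-D1 and Tap1. H2-K1 and H2-D1 held it as the same 11 letters, GGGGATTCCCC. The letters TGACG, part of the X2 box that CREB and ATF factors bind, were in 17.8% of windows and in 4 of the 6 genes. The box CCAAT was in 33.8% of windows and in all 6. The core of the xenobiotic response element GCGTG, which AhR with its partner ARNT binds, was in 28.2% of windows and in H2-D1 and Tap1, and these letters were not in the B2m or H2-K1 window. None of the capital runs in the 3 printed windows overlap, and a match describes letters, not binding. Only these exact patterns were searched, so a window without a match may still hold a variant of the element. The lack of an interferon motif match in H2-K1 and H2-D1 therefore does not show that they lack the element.

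Before any scaling, the mean signal of an array was 523 to 636 in the AhR null group, 338 to 684 in the AhR-d group and 324 to 527 in the control group, and between 7901 and 9733 probes were detected per array. The 10 mast cell markers were detected on every array. The single Ahr probe stayed at background throughout (detection p 0.115 to 0.833), so it does not check the labels. Batch n held replicate n of each genotype. Levels below are normalised log2 signals, and differences are on that scale. The fold of a dim probe is understated there, because an offset of 16 was added.

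B2m was the member whose signal differed most clearly between genotypes. On probe 1 its level was 14.44, 14.48 and 14.33 in AhR null replicates 1 to 3, 14.02, 13.69 and 13.54 in AhR-d replicates 1 to 3, and 13.41, 13.42 and 13.98 in control replicates 1 to 3. On probe 2 it was 14.42, 14.63 and 14.31 in AhR null cells, 13.98, 13.73 and 13.41 in AhR-d cells, and 13.16, 13.41 and 13.29 in control cells. All 3 AhR null arrays lay above all 6 others on both probes, whereas AhR-d and control arrays overlapped on probe 1 and met at 13.41 on probe 2. Probe 1 of control replicate 3 stood above the other 2 control arrays, while probe 2 of that array lay between them.

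The AhR null level exceeded control by 0.81 on probe 1 (SE 0.18, 95% interval 0.44 to 1.19), a 1.76-fold difference with adjusted p = 0.00835 by limma. On probe 2 the difference was 1.17 (SE 0.16, 95% interval 0.82 to 1.51), which is 2.24-fold with adjusted p = 0.00035. Within batches, AhR null minus control was between 0.35 and 1.06 on probe 1 and between 1.02 and 1.26 on probe 2, above 0 in 3 of 3 batches for each. Both probes kept adjusted p under the 0.05 threshold when any single array was left out, with 0.0473 the highest for probe 1 and 0.00366 for probe 2. In bulk RNA, more cells of a type and more RNA per cell cannot be told apart.

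The signals before normalisation were 29377, 28430 and 22151 on probe 1 in AhR null cells, 23498, 13297 and 7085 in AhR-d cells, and 7169, 12233 and 10064 in control cells. Array brightness moved with these values. AhR-d replicate 1 was the brightest of the 9 arrays, and its unscaled B2m signal lay within the AhR null range. AhR null replicate 3 and control replicate 2 had nearly equal array means, 523 and 527, and there the unscaled probe 1 signal was 22151 in AhR null cells against 12233 in control cells. The highest signal on the AhR null arrays was 41706 to 46685, above both B2m probes there. B2m probe 3 was not detected on any array (detection p 0.169 to 0.977), so it carries no information on the gene.

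**Figure D1:**
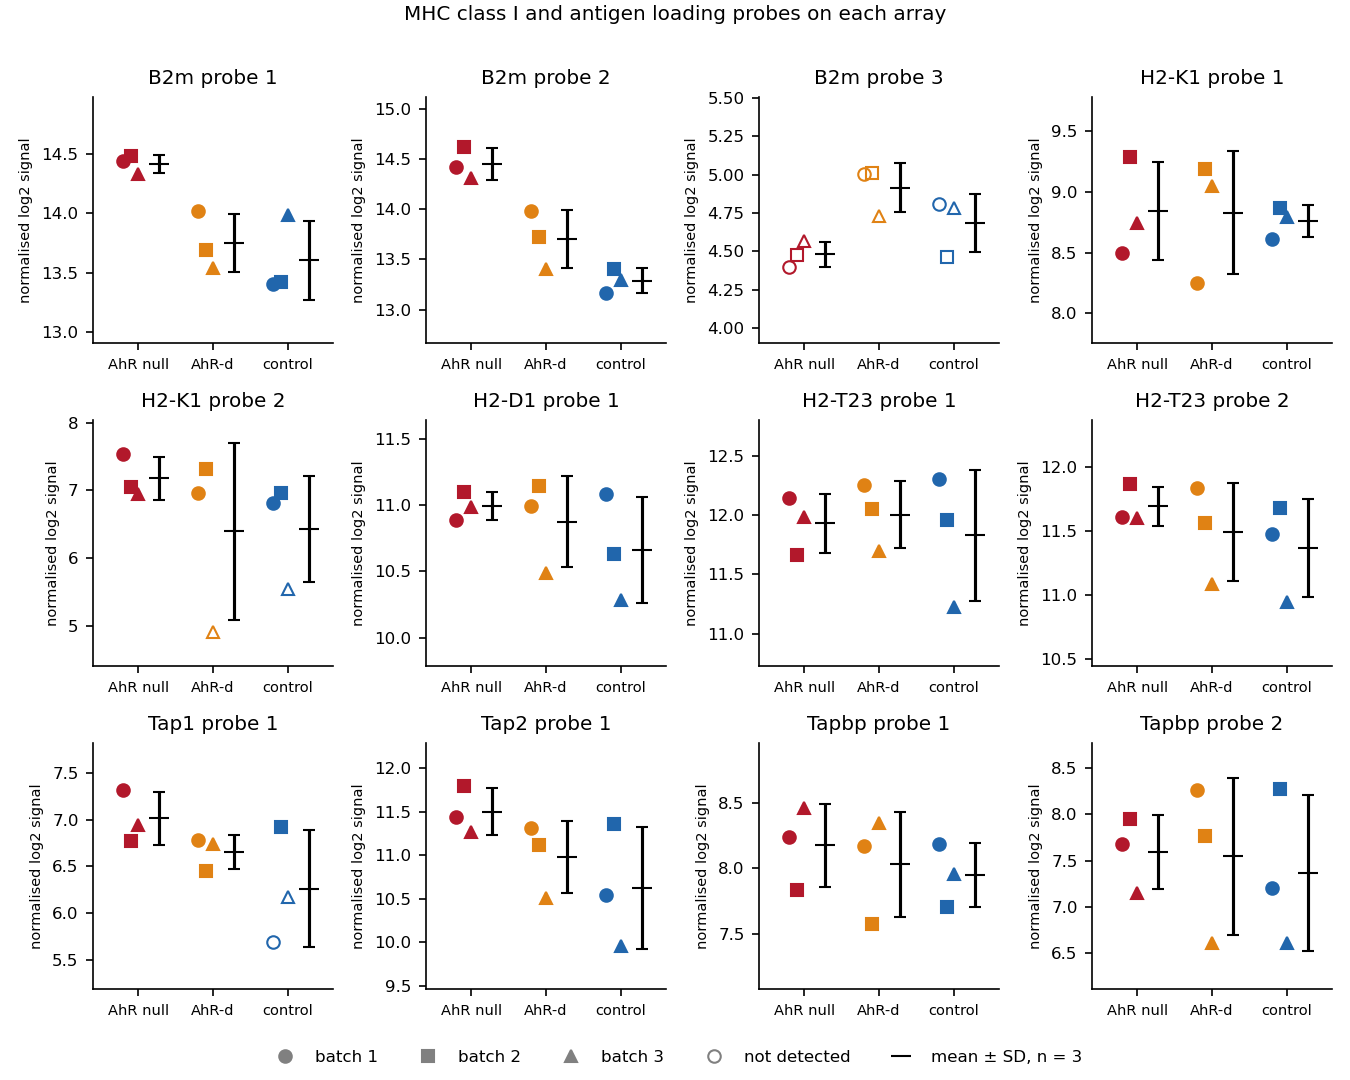
Normalised log2 signal (vertical axes) of each member probe on each of the 9 arrays, grouped as AhR null, AhR-d and control; each point is 1 array, its shape gives the batch, open points were not detected, and bars are the mean ± SD (n = 3). The 3 AhR null arrays lie above all others for B2m probes 1 and 2, while the groups overlap for every other kept member probe when AhR null is set against control.

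The heavy chains did not pass the threshold in any comparison. H2-K1, which encodes the classical K heavy chain, had probe 1 levels of 8.50, 9.29 and 8.75 in AhR null cells, 8.25, 9.19 and 9.05 in AhR-d cells, and 8.61, 8.87 and 8.80 in control cells. The 3 groups overlapped, with the control arrays closest together (SD 0.13, against 0.40 in AhR null and 0.51 in AhR-d cells). Whether the AhR-d mice carry the control haplotype at the H2 genes is not stated, and its part in the AhR-d heavy chain signals was not tested. AhR null minus control was 0.08 (SE 0.27, 95% interval -0.49 to 0.65, adjusted p = 0.866 by limma), an interval that spans 0.714-fold to 1.57-fold. H2-K1 probe 2 was at 7.54, 7.05 and 6.94 in AhR null cells, 6.96, 7.32 and 4.91 in AhR-d cells, and 6.82, 6.96 and 5.54 in control cells, and it was not detected on AhR-d replicate 3 or control replicate 3. Its difference between AhR null and control cells, 0.74, had an interval of -0.41 to 1.89, so this probe bounds little.

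H2-D1, the gene of the classical D heavy chain, was at 10.89, 11.10 and 10.99 in AhR null cells, 10.99, 11.14 and 10.49 in AhR-d cells, and 11.08, 10.63 and 10.28 in control cells. Control replicate 1 lay among the AhR null arrays. The AhR null minus control difference was 0.33 (SE 0.22, 95% interval -0.13 to 0.79, adjusted p = 0.352 by limma). The upper bound of that interval is 1.73-fold.

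H2-T23 encodes the heavy chain of Qa-1, which presents a peptide from other class I leader sequences to the natural killer cell receptor CD94/NKG2A. Its probe 1 was at 12.15, 11.66 and 11.98 in AhR null cells, 12.26, 12.05 and 11.70 in AhR-d cells, and 12.31, 11.96 and 11.23 in control cells. Its probe 2 was at 11.61, 11.87 and 11.60 in AhR null cells, 11.84, 11.56 and 11.09 in AhR-d cells, and 11.48, 11.68 and 10.94 in control cells. The 3 groups overlapped on both probes. AhR null minus control was 0.10 (95% interval -0.42 to 0.62) on probe 1 and 0.33 (95% interval -0.14 to 0.79) on probe 2, with adjusted p = 0.824 and 0.357 by limma.

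The transporter genes had AhR null minus control differences of a size near those of B2m, with a wider spread between control cultures. Tap2 was at 11.44, 11.79 and 11.27 in AhR null cells, 11.31, 11.11 and 10.51 in AhR-d cells, and 10.55, 11.35 and 9.96 in control cells. Control replicate 2 lay inside the AhR null range, and the other 2 control arrays lay below it. The AhR null minus control difference was 0.88 (SE 0.30, 95% interval 0.25 to 1.51), 1.84-fold, with adjusted p = 0.0694 by limma. With batch as a replicate block the same difference had SE 0.18 and adjusted p = 0.00374, past the threshold. Within batches it was 0.90, 0.44 and 1.31.

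Tap1 was at 7.32, 6.78 and 6.94 in AhR null cells, 6.79, 6.45 and 6.74 in AhR-d cells, and 5.68, 6.93 and 6.17 in control cells. It was detected on all arrays of both AhR-variant groups and on 1 of 3 control arrays. The difference of 0.75 (SE 0.33, adjusted p = 0.155 by limma) was not past the threshold, and in batch 2 the sign was opposite, at -0.15. Without control replicate 2, the control array on which both transporter genes were highest, the adjusted p was 0.0475 for Tap1 and 0.00832 for Tap2. Leaving out any other single array gave 0.154 to 0.425 for Tap1, with the difference down to 0.46 without control replicate 1, and 0.0536 to 0.233 for Tap2, down to 0.55 without control replicate 3.

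Tapbp probe 1 was at 8.24, 7.83 and 8.46 in AhR null cells, 8.17, 7.58 and 8.34 in AhR-d cells, and 8.19, 7.70 and 7.96 in control cells. Its probe 2 was at 7.68, 7.94 and 7.15 in AhR null cells, 8.26, 7.76 and 6.61 in AhR-d cells, and 7.21, 8.27 and 6.61 in control cells. The groups overlapped, and AhR null minus control was 0.23 on each probe, with adjusted p = 0.613 and 0.777 by limma. The intervals ran from -0.33 to 0.79 on probe 1 and from -0.72 to 1.17 on probe 2.

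**Figure D2:**
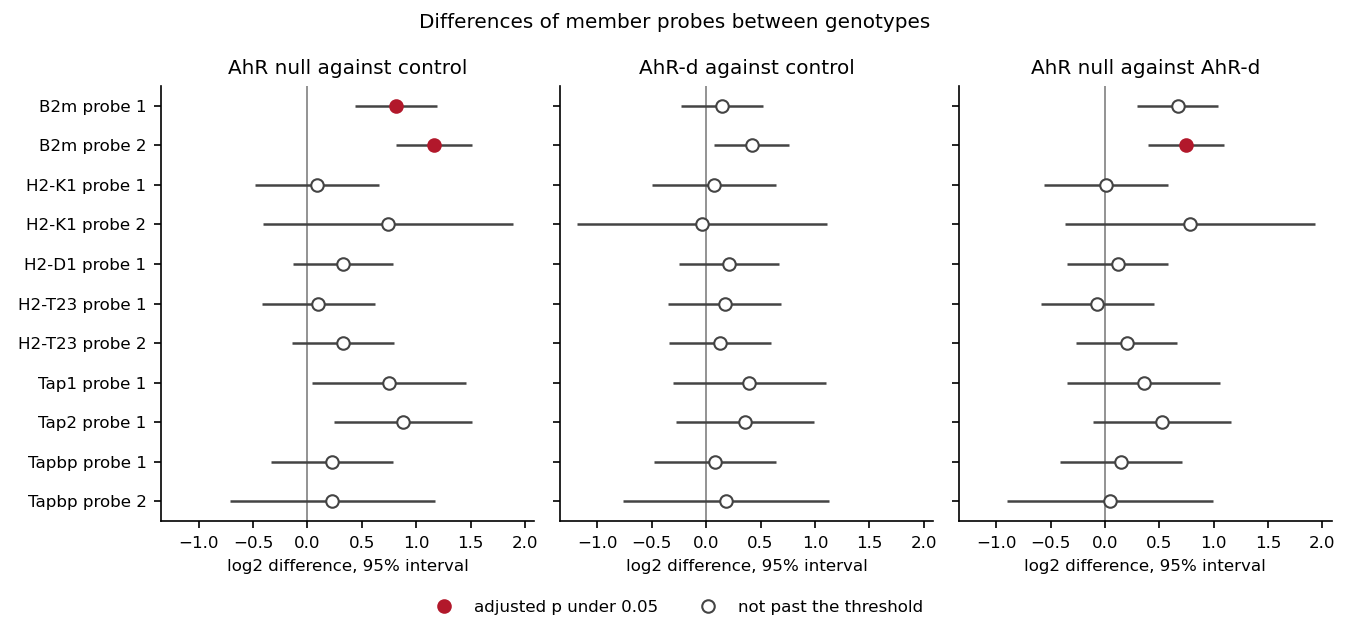
Log2 difference between genotypes (horizontal axes) of the 11 kept member probes with the 95% interval of the fit, for AhR null against control, AhR-d against control and AhR null against AhR-d; filled points passed adjusted p 0.05. B2m probes 1 and 2 pass in the first panel, none passes in the second, and B2m probe 2 passes in the third.

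Counted over the 11 kept member probes, 2 were higher in AhR null than in control cells at adjusted p under 0.05 and none was lower, where 11.7% of all tested probes passed in either direction and 6.56% passed as higher, 5.12% as lower. The median member difference was 0.33, against 0.0018 over all probes, and 11 of 11 differences were above 0, as were 4908 of all 9777. Some genes entered with more than 1 probe, and H2-K1 probe 1, H2-T23 probe 1 and Tapbp probe 2 changed sign when 1 array was left out. Only the 2 B2m probes had groups that did not overlap with AhR null above control, a state that 17.7% of all probes were in. With the batch block, 3 of 11 passed, Tap2 added, where 20% of all probes passed in either direction.

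No member separated AhR-d from control cells past the threshold. By limma 0 of 11 member probes passed, where 0.317% of all probes did, and 1 member probe and 723 of all probes had an unadjusted p under 0.05. That member probe was B2m probe 2, with a difference of 0.42 (SE 0.16, 95% interval 0.07 to 0.77, adjusted p = 0.496), while B2m probe 1 differed by 0.15 with an interval of -0.23 to 0.52. Tap2 differed by 0.36 (95% interval -0.28 to 0.99) and Tap1 by 0.40 (95% interval -0.31 to 1.10). The median over members was 0.17, against -0.0093 over all probes.

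Set directly against AhR-d cells, AhR null cells had higher B2m on probe 2 by 0.75 (SE 0.16, 95% interval 0.40 to 1.09, adjusted p = 0.0287 by limma). Probe 1 was 0.67 higher (SE 0.18, 95% interval 0.29 to 1.04), with adjusted p = 0.0724, and 0.0278 with the batch block. The AhR null arrays lay above the AhR-d arrays on both, as they did for 11.6% of all probes. In total 1 of 11 member probes passed, where 2.09% of all probes passed in either direction, 0.726% as higher, and with the block 2 of 11 passed, where 5.62% of all probes did. The probe 2 call was lost under several alternatives, among them the deposited log2 values (adjusted p = 0.0926), median scaling (adjusted p = 0.155), and the omission of any 1 AhR null array (adjusted p = 0.0517 to 0.127) or of AhR-d replicate 2 or 3 (adjusted p = 0.0669 and 0.134). The difference itself was 1.00 on the deposited values and 0.97 with median scaling, of which 0.77 and 0.57 remained after the shift of all probes was taken off. Group means ran AhR null, then AhR-d, then control from high to low for 9 of 11 probes, although no AhR-d minus control difference passed the threshold. The share of all probes in that order was not computed, and some genes entered with more than 1 probe. Several of these differences changed sign when 1 array was left out, so the count does not establish a graded pattern. The 3 comparisons share arrays, so their values are given side by side and are not independent of each other.

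B2m was also set against each other member within each array, as the log2 ratio of the mean of B2m probes 1 and 2 to 1 other probe, with 9 ratios per comparison. Between AhR null and control cells the ratio to H2-K1 probe 1 was 0.91 higher and the ratio to Tapbp probe 1 was 0.76 higher, without overlap between the groups. Each had exact permutation p = 0.1 (two-sided), the smallest that 3 against 3 arrays allow, and 0.45 after adjustment over the 9 ratios. The ratio to Tap2 was 0.11 higher (exact permutation p = 0.7) and the ratio to Tap1 was 0.24 higher (exact permutation p = 0.7). This permutation test cannot pass 0.05 with 3 arrays a group, and no other test of the ratios was run.

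Other genes of the pathway were read from lists of related function. Of 25 further heavy chains that pair with beta-2 microglobulin, 18 were on the array and 6 were kept, and 0 of these 6 passed by limma between AhR null and control cells, where 11.7% of all probes passed in either direction. H2-Q8 was closest, at 6.75 ± 0.38 in AhR null cells and 5.76 ± 0.76 in control cells (SD, n = 3 each; detected on 1 of 3 control arrays), with adjusted p = 0.167, and 0.0437 with the batch block, under which 20% of all probes passed. H2-Q7, a Qa-2 gene, differed by 0.44 (adjusted p = 0.173 by limma). Probe sequences were not used here, so cross-binding between these near-identical heavy chains, H2-K1 and H2-D1 included, was not checked.

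Among genes that supply peptides, 1 of 11 kept probes passed as higher in AhR null cells and none as lower, where 6.56% and 5.12% of all probes did. It was Psmb9, an interferon-inducible catalytic subunit of the immunoproteasome that lies beside Tap1 in the mouse MHC. Its level was 10.31, 10.42 and 10.20 in AhR null cells, 9.45, 9.72 and 9.13 in AhR-d cells, and 8.74, 9.81 and 9.49 in control cells, with all AhR null arrays above all others. Over all probes, the AhR null arrays lay above the control arrays for 17.7% and above the AhR-d arrays for 11.6%. Psmb9 differed between AhR null and control cells by 0.96 (SE 0.25, adjusted p = 0.0223 by limma), but the adjusted p was 0.0912 without control replicate 1, 0.0722 without AhR null replicate 1 and 0.0821 without AhR null replicate 2. Psme1 probe 2, for a subunit of the proteasome activator PA28, differed by 0.63 (adjusted p = 0.0923, and 0.049 with the batch block). The median of the 11 probes was 0.15.

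Of the chaperones that fold heavy chains and of their relatives, 0 of 9 kept probes passed by limma, where 11.7% of all probes did. Uggt1, which marks misfolded glycoproteins for another round of folding, was 0.44 lower in AhR null cells (SE 0.15, adjusted p = 0.072, and 0.0415 with the batch block, under which 20% of all probes passed). Calr, the calreticulin of the loading complex, differed by 0.31 (adjusted p = 0.479).

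The genes that drive class I transcription and sense interferon gave 1 call in 15 kept probes, where 11.7% of all probes were called. Ifngr1, the ligand-binding chain of the interferon-gamma receptor, was at 8.14, 8.35 and 8.0 in AhR null cells, 7.57, 7.47 and 6.45 in AhR-d cells, and 6.93, 7.47 and 5.24 in control cells, where it was not detected on replicate 3. Its AhR null minus control difference was 1.61 (SE 0.46, adjusted p = 0.0372 by limma). Without control replicate 3 it was 0.96 (adjusted p = 0.102), and the call was also lost when control replicate 1 or any 1 AhR null array was omitted, with adjusted p between 0.0623 and 0.117. Socs1, an inhibitor of interferon receptor signalling, was 1.11 lower in AhR null cells (adjusted p = 0.0749, and 0.00667 with the batch block). Tyk2, a kinase of the type I interferon receptor, had a probe 0.97 higher (adjusted p = 0.0754). The Nlrc5 probe was not detected in any group.

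Calls among interferon-stimulated genes came from 1 gene in each direction between AhR null and control cells. Of 32 listed genes on the array, 12 were kept, with 18 probes. Of these probes, 2 were higher, both of Gbp3, and 2 were lower, both of Usp18, where 6.56% and 5.12% of all probes passed. The list median was -0.04. Usp18 encodes a protease that removes ISG15 from proteins and dampens type I interferon signalling. Its probe 1 was at 7.87, 7.69 and 7.44 in AhR null cells, 8.93, 9.18 and 9.48 in AhR-d cells, and 9.31, 9.76 and 9.87 in control cells. The AhR null arrays lay below all others, a state whose share over all probes was not computed. The AhR null minus control difference of Usp18 on that probe was -1.98 (SE 0.22, adjusted p = 5.97e-05 by limma), and the AhR null minus AhR-d difference was -1.53 (SE 0.22, adjusted p = 0.00212). Usp18 probe 2 differed by -1.63 between AhR null and control cells (SE 0.26, adjusted p = 0.00118), a call lost on the deposited log2 values (adjusted p = 0.0723) and with median scaling (adjusted p = 0.107). The probe 1 call against AhR-d was lost on the deposited log2 values (adjusted p = 0.17) and with median scaling (adjusted p = 0.214).

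Gbp3, an interferon-induced guanylate-binding protein, had probe 1 levels of 7.81, 7.79 and 7.30 in AhR null cells, 6.85, 6.91 and 6.35 in AhR-d cells, and 5.94, 6.45 and 6.01 in control cells, where 1 of 3 arrays was above detection. The difference of 1.50 between AhR null and control cells had SE 0.29 and adjusted p = 0.00396 by limma. Gbp3 probe 2 was detected on 3 of 3 AhR null arrays and 0 of 3 control arrays, with adjusted p = 0.0042. It was thus kept through the AhR null and AhR-d arrays, a lower call could hardly arise, and its direction carries little information. Between AhR-d and control cells, limma called 0 probes in each of the pathway lists, class II included, where 0.317% of all probes were called. With the batch block it called 1 probe, of the class II chaperone Cd74 (adjusted p = 0.0309), where 98 of all 9777 probes passed as higher and 34 as lower. Cd74 was not detected on any control array, so a lower call could hardly arise.

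Class II presentation, the route for antigens taken up from outside the cell, gave 1 call in 12 kept probes. H2-Ob, a chain of the DO protein that restrains peptide exchange on class II molecules, was at 9.57, 9.60 and 9.13 in AhR null cells, 8.43, 9.09 and 8.35 in AhR-d cells, and 8.22, 8.30 and 8.48 in control cells. It was 1.10 higher in AhR null than in control cells (SE 0.23, adjusted p = 0.00722 by limma). With the batch block 2 of 12 passed, H2-DMa added (0.82 higher, adjusted p = 0.033). The class II regulator Ciita was not detected in any group. Calls in the class II and interferon lists are to be read against 11.7% of all probes passing in that comparison.

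**Figure D3:**
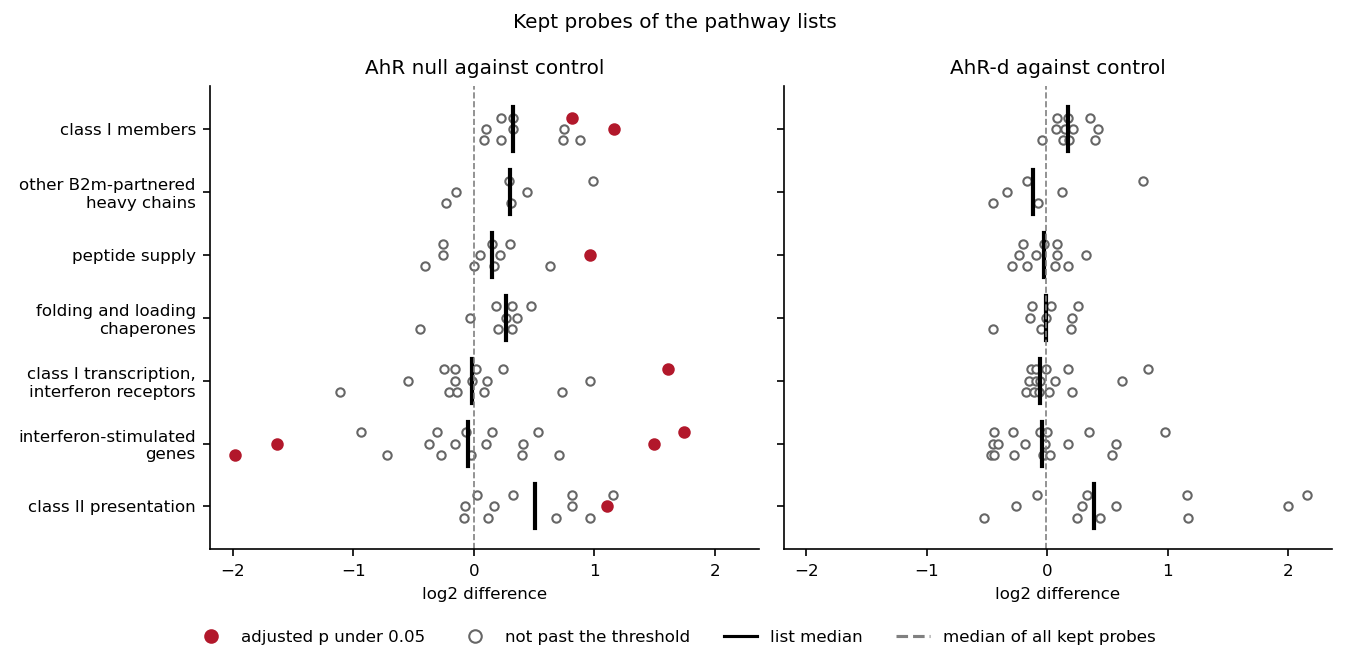
Log2 difference of AhR null against control (left) and AhR-d against control (right) for every kept probe of the class I members and of each related list; each point is 1 probe, filled where adjusted p was under 0.05, with a bar at the list's median and a dashed line at the median of all kept probes. On the left, filled points are the 2 B2m probes, Psmb9, Ifngr1, 2 probes each of Usp18 and Gbp3, and H2-Ob; no point on the right is filled.

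Markers of other blood cells differed between AhR null and control cells, and none passed between AhR-d and control cells without the batch block. The 13 neutrophil markers summed to between 1297 and 2108 normalised signal units in AhR null cells (5 to 7 genes detected), 356 to 5465 in AhR-d cells (0 to 8 detected), and 349 to 370 in control cells (0 detected). Of their 9 kept probes, 4 passed as higher in AhR null than in control cells and none as lower, where 6.56% and 5.12% of all probes did. With the batch block 7 passed, where 20% of all probes passed in either direction. With no marker gene detected on a control array, these probes were kept through the AhR null and AhR-d arrays. A lower call could therefore hardly arise, and the direction of the calls carries little information. S100a8, a subunit of calprotectin, which neutrophils store in bulk, was at 9.05, 9.67 and 9.89 in AhR null cells, 4.65, 11.27 and 11.63 in AhR-d cells, and 4.58, 4.55 and 4.82 in control cells (adjusted p = 0.0203 by limma for AhR null against control). The others were Prtn3 and both probes of Chil3, and like S100a8 they were detected on 3 of 3 AhR null arrays and on no control array. Camp, Ngp and Mmp8, granule genes of maturing neutrophils, were not detected in any group, nor were Retnlg and Cebpe. Ltf of the same list was detected on at least 1 AhR null and 1 AhR-d array. Lcn2 was detected on at least 1 AhR-d array and on no AhR null or control array. AhR-d replicate 1 had a neutrophil sum of 356 and a mean B2m level of 14.00. AhR-d replicates 2 and 3 had sums of 4941 and 5465 and B2m levels of 13.71 and 13.48. The AhR null arrays had sums of 1297 to 2108 and B2m levels of 14.32 to 14.55. The control arrays had sums of 349 to 370 and B2m levels of 13.29 to 13.64. A relation between the sums and B2m was not tested.

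The 11 monocyte and macrophage markers on the array summed to 2220 to 4006 in AhR null cells, 1920 to 7426 in AhR-d cells and 1249 to 2832 in control cells. Of their 8 kept probes, 3 passed as higher in AhR null than in control cells and 1 as lower, where 6.56% and 5.12% of all probes did. The higher ones were Apoe (3.69 higher, adjusted p = 0.000182 by limma, detected on 1 of 3 control arrays) and both probes of Lyz2. The lower one was Cx3cr1, a chemokine receptor, at 8.04, 8.23 and 9.05 in AhR null cells, 9.42, 9.03 and 10.09 in AhR-d cells, and 9.49, 9.92 and 10.73 in control cells (adjusted p = 0.00799, lost on the deposited values and with median scaling at adjusted p = 0.0749 and 0.107). C1qa, Ccr2 and Marco were not detected in any group.

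Of 7 kept erythroid and megakaryocyte probes, 2 passed as higher in AhR null than in control cells and 1 as lower. Over all probes 6.56% passed as higher and 5.12% as lower. Hbb-bt, a beta-globin gene, was at 10.31, 11.66 and 9.32 in AhR null cells, 9.25, 10.61 and 8.25 in AhR-d cells, and 6.98, 7.59 and 4.86 in control cells (adjusted p = 0.00229 by limma), and Klf1 was the other higher one. Klf1 was not detected on any control array, so a lower call could hardly arise for it. Vwf, von Willebrand factor, was at 7.44, 5.74 and 8.85 in AhR null cells, 10.39, 9.40 and 9.21 in AhR-d cells, and 10.62, 10.38 and 10.13 in control cells (adjusted p = 0.0027). Of 3 kept basophil probes, 1 passed as higher, where 6.56% of all probes did. It was that of the protease Prss34 (2.94 higher, adjusted p = 0.00222). No T or natural killer cell marker probe was kept. The mast cell marker sum was 165888 to 184989 in AhR null cells, 169563 to 176876 in AhR-d cells and 162349 to 175476 in control cells. Of 13 kept mast cell probes, 3 passed as higher in AhR null than in control cells and none as lower, where 6.56% and 5.12% of all probes did. The median of that list was -0.07, and with the batch block 4 passed as higher and 2 as lower, where 20% of all probes passed. Hdc, the enzyme that makes histamine, was 2.82 higher in AhR null than in control cells (adjusted p = 8.86e-06). Its level was 11.66, 12.74 and 12.01 in AhR-d cells and 10.71, 11.24 and 10.55 in control cells. In AhR-d against control, 1 mast cell probe passed as higher, where 0.317% of all probes passed in either direction. In AhR null against AhR-d, 1 passed as higher, where 0.726% of all probes did. The part of other cells, or of cell state, in the B2m difference was not tested.

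**Figure D4:**
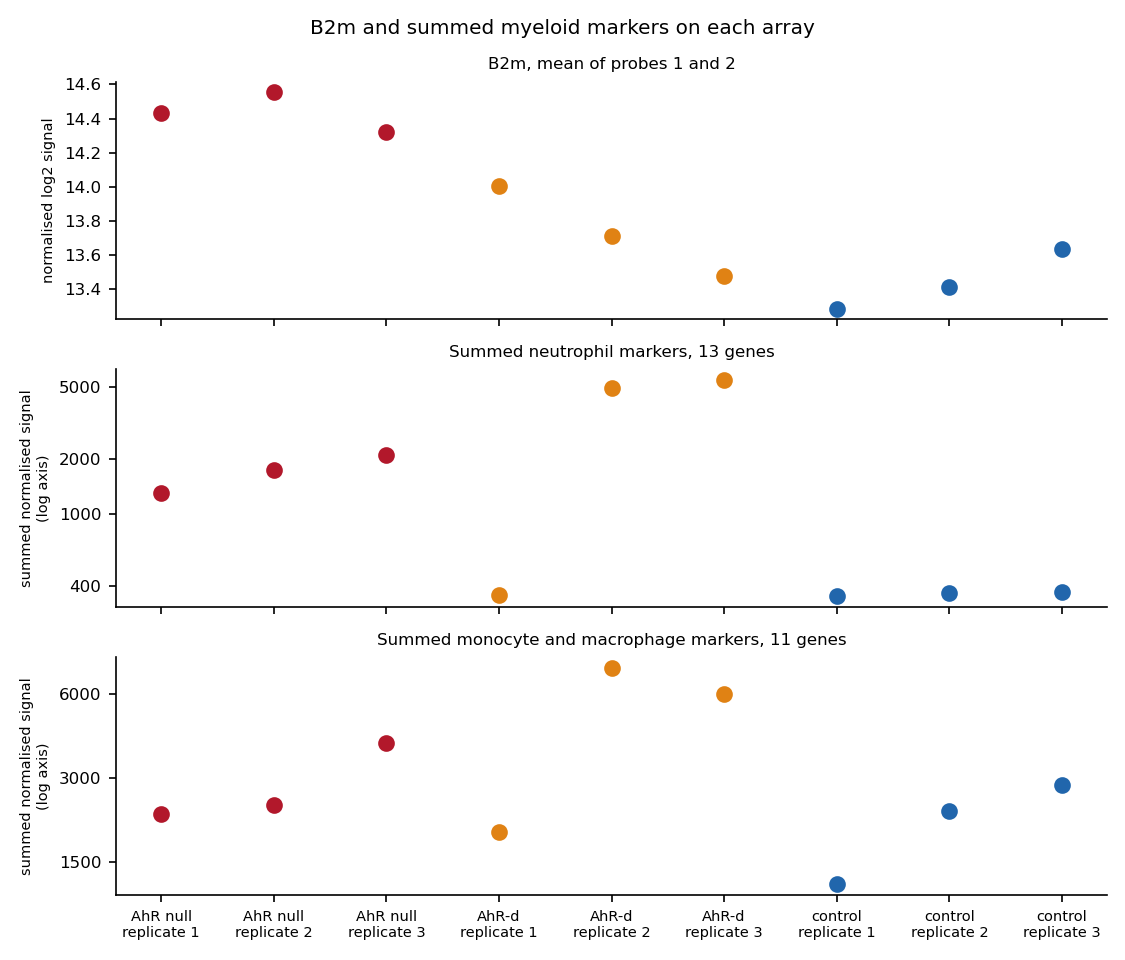
B2m (mean of probes 1 and 2, normalised log2 signal), and the summed normalised signal of 13 neutrophil and of 11 monocyte and macrophage markers (log axes), on each of the 9 arrays; each point is 1 array. B2m is highest on the 3 AhR null arrays. Both marker sums are highest on AhR-d replicates 2 and 3, and the neutrophil sum is lowest on the control arrays and AhR-d replicate 1.

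The 7 genes did not share 1 profile over the 9 arrays. Set against the mean of their own standardised levels, which each of them enters, Tap2 correlated at r = 0.88, H2-D1 at 0.71, Tap1 at 0.67, B2m at 0.64, H2-T23 at 0.49, Tapbp at 0.22 and H2-K1 at -0.03. Among 6857 genes, the 5 whose pattern was most like that mean were Mkrn2 (r = 0.983), Hmox2 (0.982), Slc10a3 (0.979), Calu (0.978) and Nsmce1 (0.977). These 9 points share genotype, batch and array brightness, and the values are a description over arrays.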

How the data were processed

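The deposited table holds signal intensity for each probe and array, without scaling between arrays; per the file headers each intensity is followed by a detection p-value. The submitters' processing notes name GenomeStudio, with no version. A second deposited table holds log2 values, which equal the log2 of the intensity plus 1 constant per array (within 0.0001) that sets each array's median to 8. From the intensities, background was modelled by normexp using the detection p-values, 16 was added, arrays were quantile-normalised and log2 was taken (neqc, limma 3.58.1, R 4.3.3). Probes detected (p under 0.01) on at least 3 of 9 arrays were kept. A linear model with 1 mean per genotype was fitted over all 9 arrays with a trended variance prior (6 residual degrees of freedom), p-values were adjusted by Benjamini-Hochberg over all 9777 kept probes, and 0.05 was the threshold. The code was tested on simulated data. Gene symbols came from the platform annotation, which gives a symbol to 23978 of 25697 probes. The members, the gene lists and the motifs were chosen with earlier results of these data known. All member probes are named. From each pathway list up to 4 probes with the smallest p were named per comparison, from marker lists up to 2, and the 5 genes most like the members' mean. Calr, Prtn3, Lyz2, Klf1, Camp, Ngp, Mmp8, Retnlg, Cebpe, Ltf, Lcn2, C1qa, Ccr2, Marco, Nlrc5, Ciita and Cd74 were named outside that rule, after their values were seen. The labels give batch numbers that tie same-numbered arrays. Deviations from group means correlated at 0.103 to 0.336 in the 9 same-batch pairs, against -0.341 to 0.08 in the 18 other pairs, so a fit with batch as a replicate block was also made. The number of arrays limits the precision. Alternatives covered normalisation, background, filter, probe choice, variance, samples, block and omission of each array.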

Additional observations from a re-analysis of the deposited data

How the results depend on the processing

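The 11 kept member probes gave 2 calls between AhR null and control cells in the fit reported and 2 to 4 when 1 array was left out, with 1 when a single probe stood for each gene, and 3 with the replicate block (batch), Tap2 added with adjusted p = 0.00374. The block also moved AhR null against AhR-d to 2 calls and changed no other member call. AhR null against AhR-d gave 0 calls on the deposited log2 values, with median scaling and with 1 probe per gene, 2 with only the 2 groups compared, and 0 to 2 when 1 array was left out. AhR-d against control gave 0 calls under every alternative run. Tap2 between AhR null and control cells also passed on the deposited values (1.25, adjusted p = 0.0404) and with median scaling (1.41, adjusted p = 0.0243). Over all probes, calls between AhR null and control cells numbered 1142 in the fit reported, 1951 with the block and 603 to 1271 with 1 array left out; between AhR-d and control cells they numbered 31, with 6 to 132 under other settings; between AhR null and AhR-d cells they numbered 204, with 81 to 263 with 1 array left out and 138 to 549 under other settings. Higher calls made up 56.1% of those between AhR null and control cells, against 91.7% on the deposited values and 92.1% with median scaling, where the median of all probes moved by 0.287 and 0.557. Relative to that shift, B2m stayed higher in AhR null than in control cells, by 0.90 and 0.68 on probe 1 and 1.21 and 1.00 on probe 2. Directions of probes that never passed were not stable. H2-K1 probe 2 between AhR-d and control cells was 0.11 on the deposited values, 0.25 with median scaling, 0.10 with cyclic loess and 0.019 without background correction, against -0.04. H2-T23 probe 1 between AhR null and AhR-d cells was 0.31 on the deposited values and 0.29 with median scaling, against -0.07, and Tapbp probe 2 was -0.0093 with cyclic loess and -0.0066 without background correction, against 0.05. Leaving out 1 array turned the sign of 15 member differences, none past the threshold. AhR null against control ranged from -0.14 to 0.26 for H2-K1 probe 1, -0.20 to 0.34 for H2-T23 probe 1 and -0.15 to 0.68 for Tapbp probe 2. AhR-d against control ranged from -0.11 to 0.36 for H2-K1 probe 1, -0.50 to 0.70 for H2-K1 probe 2, -0.13 to 0.41 for H2-T23 probe 1, -0.086 to 0.33 for H2-T23 probe 2, -0.074 to 0.31 for Tapbp probe 1 and -0.19 to 0.65 for Tapbp probe 2. AhR null against AhR-d ranged from -0.076 to 0.25 for H2-D1, -0.28 to 0.19 for H2-K1 probe 1, -0.22 to 0.062 for H2-T23 probe 1, -0.0054 to 0.37 for H2-T23 probe 2, -0.082 to 0.32 for Tapbp probe 1 and -0.42 to 0.41 for Tapbp probe 2. The cause of these changes was not tested. Among markers of other cells, the S100a8 call between AhR null and control cells was lost with a robust variance (adjusted p = 0.148), without background correction (adjusted p = 0.052) and without any 1 AhR null array or control replicate 1 (adjusted p = 0.051 to 0.0675). Tap1, H2-K1 probe 2 and Gbp3 lie near background, which limits their differences.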
